A study of Sus scrofa with 3 samples.

Results

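The Hippo-YAP genes described here are 10 genes taken by symbol from the 26466 symbols counted in 3 pig libraries: YAP1, WWTR1, TEAD1, LATS1, LATS2, AJUBA, AMOTL2, CTGF, CYR61 and ANKRD1. All 10 had a row in every library. The libraries came from Sus scrofa, 1 per population: mesenchymal stem cells derived from bone marrow (BM-MSC), cells labelled as attached cells of bone marrow (BMAC), and mononuclear cells of peripheral blood (PBMC). No label gives an animal, strain, age, culture time or treatment for any of them. The design set these cell populations against each other to compare their gene expression.

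The Hippo pathway is a kinase cascade that holds back the co-activators YAP1 and WWTR1 (also called TAZ). The kinases STK3 and STK4 activate LATS1 and LATS2, which phosphorylate both co-activators, keep them in the cytoplasm and mark them for degradation. Unphosphorylated YAP1 and WWTR1 enter the nucleus and act on genes through TEAD transcription factors. Adhesion to a stiff surface, spreading and actin tension are known to favour nuclear YAP1, which is why stromal cells grown on plastic are a common setting for work on this pathway. Most of this control acts on proteins, which transcript counts do not measure.

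Libraries held 15122997 to 17069344 counts of 3' transcript ends. Levels are given as counts per 1000000 of the library total (CPM), with 95% exact Poisson intervals where stated. Such intervals, and all those below, cover counting error only. With 1 library per population no difference has a replicate check, so the populations were not tested against each other and no p-values were computed. A gene was measured in a pair of libraries when the higher one held at least 10 CPM and 10 counts, and it was called different at a ratio of at least 4-fold after adding 1 CPM to both (a log2 ratio of 2). Printed folds are CPM ratios without that addition. A fold against 0 counts is a bound that takes 0 as 3 counts in that library, 0.176 CPM for BM-MSC, 0.198 CPM for BMAC and 0.194 CPM for PBMC. Levels of different genes are not compared with each other, since 3' counts depend on how each gene's end is annotated.

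Summed levels of stromal and leukocyte markers followed the labels, though not every single marker did. The summed level of 8 stromal markers (COL1A1, COL1A2, COL3A1, PDGFRB, PDGFRA, THY1, NT5E and ENG) was 13197 CPM for BM-MSC and 10939 CPM for BMAC, against 59.6 CPM for PBMC. The collagen genes made up most of both marrow sums. Of the 8, 7 in BM-MSC and 6 in BMAC were called higher than PBMC, where 14.3% and 14% of all symbols were. ENG was called in neither, at 17.6 CPM for BM-MSC and 16.2 CPM for BMAC, against 5.31 CPM for PBMC. THY1 was not called in BMAC, at 69.8 CPM against 48.7 CPM for PBMC, and stood at 364 CPM for BM-MSC. The summed level of 9 leukocyte markers (PTPRC, CD3E, CD3D, CD2, MS4A1, NKG7, CD14, TYROBP and LYZ) was 8.44 CPM for BM-MSC and 20.04 CPM for BMAC, against 4109 CPM for PBMC. Of these leukocyte markers, 2 were at 0 counts in BM-MSC and 3 in BMAC, and the monocyte marker CD14 made up most of the BMAC sum, at 3.63 CPM for BM-MSC and 17.3 CPM for BMAC, against 12.9 CPM for PBMC. CD14 alone of these markers stood above PBMC in BMAC. TYROBP, LYZ and PTPRC stood at 0.198, 0 and 1.85 CPM for BMAC, against 223, 95.5 and 2884 CPM for PBMC. The part of any leukocytes in the results below was not tested. Endothelial markers (PECAM1, CDH5, KDR, TEK and VWF) summed to 18.5 CPM for BM-MSC, 32.2 CPM for BMAC and 164 CPM for PBMC, with CDH5 and KDR under 1 CPM in every library. Epithelial markers (EPCAM, KRT8, KRT18 and CDH1) summed to 2.34, 1.98 and 14.2 CPM in the same order. For PBMC a single gene made up most of each of these sums, PECAM1 at 145 CPM and CDH1 at 13.4 CPM. Fewer cells that express a gene and less of its RNA per cell cannot be told apart in such libraries.

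YAP1, WWTR1 and TEAD1, which together form the transcriptional end of the pathway, were low in blood cells and far higher in both marrow populations. YAP1, the co-activator that gives the pathway its output, stood at 142 CPM for BM-MSC and 205 CPM for BMAC, against 2.52 CPM for PBMC (39 counts). The difference from PBMC was 56.2-fold (41.0 to 79.2) for BM-MSC and 81.1-fold (59.2 to 114) for BMAC. Both marrow libraries thus lay far from PBMC, and BMAC was the higher of them.

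WWTR1, the paralog of YAP1, stood at 125 CPM for BM-MSC and 86.7 CPM for BMAC, against 4.79 CPM for PBMC (74 counts). It was 26.1-fold (20.7 to 33.4) higher in BM-MSC and 18.1-fold (14.3 to 23.2) higher in BMAC than in PBMC. The order of the marrow libraries was the reverse of that seen for YAP1.

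TEAD1, a DNA-binding partner of both co-activators, stood at 765 CPM for BM-MSC and 1022 CPM for BMAC, against 7.57 CPM for PBMC (117 counts). The folds over PBMC were 101 (84.2 to 122) for BM-MSC and 135 (112 to 163) for BMAC. An unnamed row, LOC110259298, overlaps TEAD1 in the annotation and stood at 315 CPM for BM-MSC and 318 CPM for BMAC, against 0.453 CPM for PBMC. Since strand use in the counting is not stated, reads of the overlapping rows cannot be told apart. With both rows summed, the folds over PBMC were 135 (113 to 162) for BM-MSC and 167 (140 to 201) for BMAC.

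**Figure D1:**
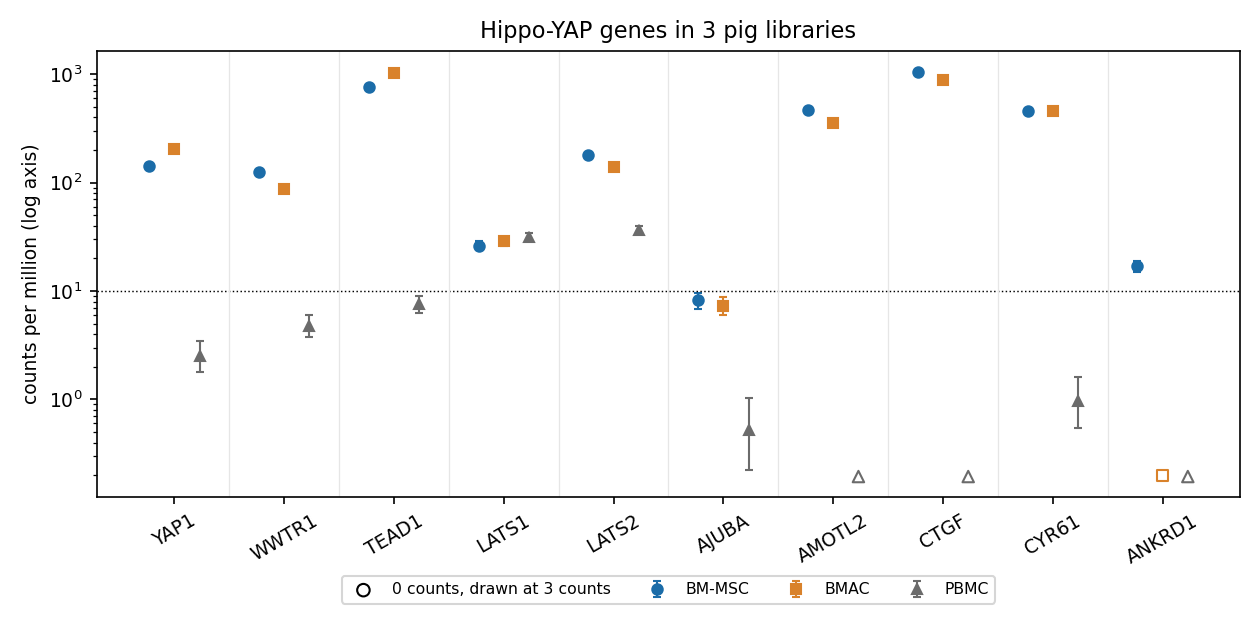
Level of the 10 Hippo-YAP genes in CPM on a log axis, for BM-MSC (circles), BMAC (squares) and PBMC (triangles), 1 library each, with 95% Poisson intervals. Open symbols mark 0 counts and are drawn at the level of 3 counts, and the dotted line marks 10 CPM. All genes but LATS1 and ANKRD1 had both marrow libraries above PBMC, while LATS1 lay between 26.2 and 31.5 CPM in all 3.

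The LATS kinases, which inhibit YAP1 and WWTR1, behaved differently from each other. LATS1 stood at 26.2 CPM for BM-MSC (23.8 to 28.7), 28.8 CPM for BMAC (26.1 to 31.6) and 31.5 CPM for PBMC (28.7 to 34.4). The ratio over PBMC was 0.832 (0.730 to 0.948) for BM-MSC and 0.914 (0.801 to 1.04) for BMAC, and both turned to slightly above PBMC with TMM and median-of-ratios factors. The order PBMC, BMAC, BM-MSC is therefore not settled by these counts, and neighbours in it have ratios whose intervals include 1.

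LATS2, itself a reported YAP target gene as well as an inhibitor, stood at 181 CPM for BM-MSC and 140.25 CPM for BMAC, against 36.4 CPM for PBMC. It was 4.99-fold (4.56 to 5.47) higher in BM-MSC and 3.85-fold (3.51 to 4.24) higher in BMAC than in PBMC. These values lie on either side of the 4-fold threshold, with log2 ratios of 2.29 and 1.92. The BMAC ratio passed the threshold with TMM factors (2.19), median-of-ratios factors (2.20) and totals without ribosomal RNA rows (2.01), so the call for LATS2 in BMAC depends on the scaling.

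AJUBA, a LIM domain adaptor that binds and restrains LATS kinases, was found in all 3 libraries at low counts. It stood at 8.20 CPM for BM-MSC and 7.34 CPM for BMAC, against 0.518 CPM for PBMC, from 140, 111 and 8 counts. No library reached 10 CPM, so AJUBA was not measured in any pair. Its ratios over PBMC were 15.8 (7.82 to 37.4) for BM-MSC and 14.2 (6.95 to 33.6) for BMAC.

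Among the target genes of YAP and TEAD, CTGF and AMOTL2 had the widest ratios of the 10 in both comparisons with PBMC. CTGF, a secreted matricellular protein (CCN2) and a standard readout of YAP activity, had 18039 counts in BM-MSC and 13314 in BMAC, against 0 in PBMC. Its level was 1057 CPM for BM-MSC and 880.4 CPM for BMAC, at least 5441-fold and 4533-fold above PBMC. AMOTL2, a motin scaffold that binds YAP1 and is also its target, had 7921 counts in BM-MSC and 5380 in BMAC, against 0 in PBMC. At 464 CPM for BM-MSC and 356 CPM for BMAC, it was at least 2389-fold and 1832-fold above PBMC. Neither gene was detectable in blood cells at this depth, where the 95% Poisson interval of 0 counts reaches 0.239 CPM.

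CYR61 (CCN1), the close relative of CTGF, stood at 461 CPM for BM-MSC and 456 CPM for BMAC, against 0.971 CPM for PBMC (15 counts). It was 474-fold (287 to 848) higher in BM-MSC and 469-fold (284 to 839) higher in BMAC than in PBMC. ZNHIT6 overlaps CYR61 in the annotation and stood at 577 CPM for BM-MSC and 564 CPM for BMAC, against 45.6 CPM for PBMC. It moved with CYR61 by 12.7-fold (11.7 to 13.7) and 12.4-fold (11.5 to 13.4). With both rows summed the folds over PBMC were 22.3 (20.7 to 24.1) for BM-MSC and 21.9 (20.3 to 23.6) for BMAC, still past 4-fold but far smaller.

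ANKRD1, a muscle ankyrin repeat protein gene often used with CTGF and CYR61 as a YAP readout, was the one gene of the 10 found in a single library. It had 289 counts in BM-MSC, 0 in BMAC and 0 in PBMC. The level of 16.9 CPM (15.0 to 19.0) in BM-MSC was at least 85.3-fold above BMAC and at least 87.2-fold above PBMC. RPP30, a ribonuclease P subunit gene that overlaps ANKRD1 in the annotation, stood at 38.0 CPM for BM-MSC and 22.6 CPM for BMAC, against 25.9 CPM for PBMC. With both rows summed BM-MSC was 2.43-fold (2.14 to 2.76) above BMAC and 2.12-fold (1.88 to 2.39) above PBMC, below the 4-fold threshold. RPP30 was present in all 3 libraries, whereas ANKRD1 had no count outside BM-MSC.

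Read against all genes, 8 of the 9 genes measured in BM-MSC against PBMC were called higher in BM-MSC, where 14.3% of 11428 measured symbols were called higher, and 0 were called lower, against 15.7% of symbols. In BMAC against PBMC, 6 of 8 were called higher, where 14% of 11371 symbols were, and 0 lower, against 12.8%. These comparisons share the PBMC library. Of the measured genes, 7 in BM-MSC and 6 in BMAC reached 10 CPM only through the marrow library, which favours a call in that direction, so these counts describe the genes and do not test them. LATS1 and LATS2 were the genes above 10 CPM for PBMC as well. TMM factors moved the median log2 ratio of all symbols to 0.23 for BM-MSC against PBMC, from -0.16 with library totals, and to 0.21 for BMAC against PBMC, from -0.12. Median-of-ratios factors moved them to 0.26 and 0.22. The genes called with library totals had log2 ratios of 2.29 and above, and each stayed past 2 with both kinds of factor.

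**Figure D2:**
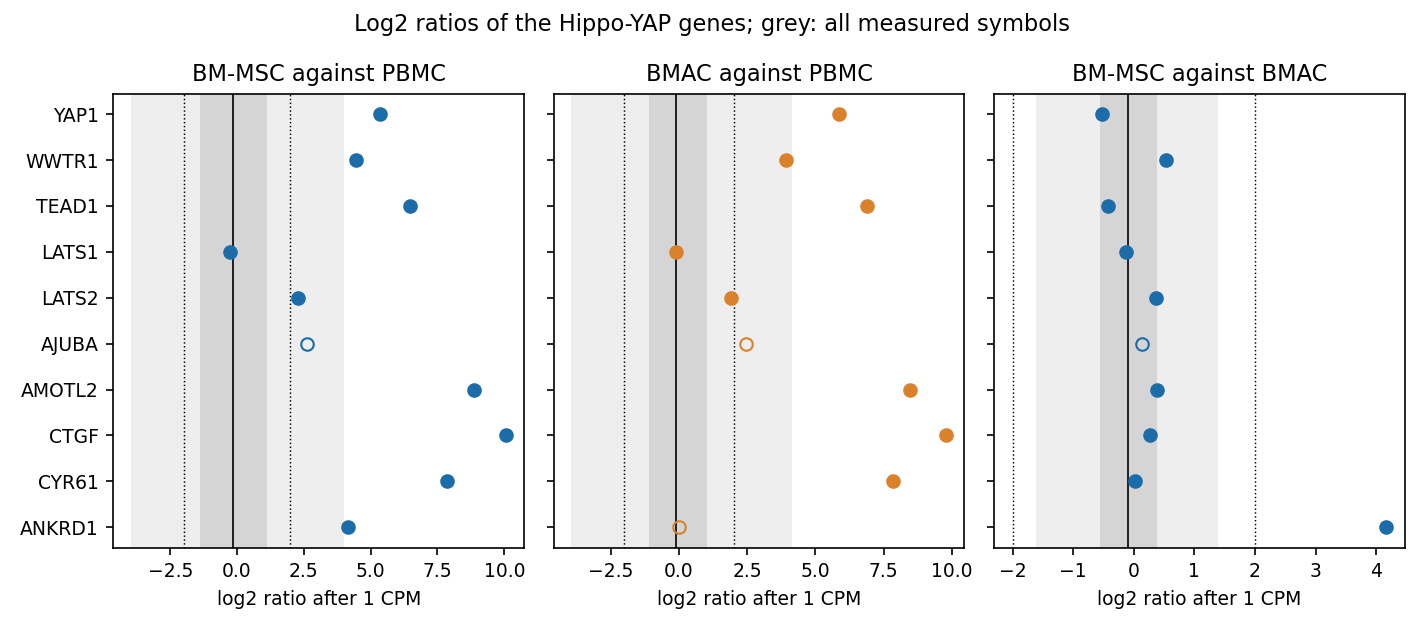
Log2 ratio after adding 1 CPM (x axis, scaled separately in each panel) of the 10 genes for BM-MSC against PBMC, BMAC against PBMC and BM-MSC against BMAC. The line and the dark and light grey bands mark the median, the middle 50% and the middle 90% of all measured symbols, dotted lines mark the 4-fold threshold, and open circles mark genes not measured in that pair. Against PBMC, all measured genes but LATS1 lie right of the dark band, while between the marrow libraries ANKRD1 alone lies beyond 4-fold, at 4.16.

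Between BM-MSC and BMAC the Hippo-YAP genes differed little. Of 9 measured, 1 was called higher in BM-MSC (ANKRD1), where 2.9% of 10303 symbols were, and 0 were called lower, against 3.21% of symbols. AMOTL2, LATS2 and CTGF were higher in BM-MSC than in BMAC by 1.30-fold (1.26 to 1.35), 1.29-fold (1.22 to 1.37) and 1.20-fold (1.17 to 1.23). WWTR1 was 1.44-fold (1.35 to 1.55) higher in BM-MSC. YAP1 and TEAD1 went the other way, at 0.693 (0.657 to 0.731) and 0.748 (0.731 to 0.766) of the BMAC level. CYR61, at a ratio of 1.01 (0.978 to 1.04), LATS1, at 0.910 (0.796 to 1.04), and AJUBA, at 1.12 (0.865 to 1.45), had intervals that include 1. Each of these directions, for the measured genes, held with TMM and median-of-ratios factors. Intervals for counting error alone are narrow at this depth, and differences of this size may lie within the spread between libraries of 1 population, which was not measured.

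Ratios of one gene's counts to another's within a library do not depend on how libraries are scaled, and they showed how the balance of paralogs moved. The count ratio of WWTR1 to YAP1 was 0.882 (0.832 to 0.935) in BM-MSC and 0.423 (0.397 to 0.452) in BMAC, against 1.90 (1.27 to 2.87) in PBMC. BM-MSC thus had 2.08 times (1.91 to 2.27) the BMAC ratio, and PBMC the highest ratio of the 3. Only the change of a ratio between libraries carries meaning here, since the value itself depends on the annotated ends of both genes.

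For the LATS kinases the ratio in both marrow populations lay above that in PBMC, the opposite of WWTR1 to YAP1, while BM-MSC lay above BMAC for both ratios. The count ratio of LATS2 to LATS1 was 6.93 (6.27 to 7.67) in BM-MSC and 4.88 (4.40 to 5.42) in BMAC, against 1.16 (1.02 to 1.31) in PBMC. This was a change of 5.99 times (5.10 to 7.03) for BM-MSC and 4.22 times (3.58 to 4.96) for BMAC relative to PBMC. The kinase counts followed YAP1 less closely, and the ratio of LATS2 to YAP1 was 1.28 (1.21 to 1.35) in BM-MSC and 0.685 (0.648 to 0.724) in BMAC, against 14.4 (10.4 to 20.5) in PBMC. Taken without LOC110259298, TEAD1 stayed closest to YAP1, with a count ratio of 5.39 (5.16 to 5.63) in BM-MSC and 4.99 (4.80 to 5.19) in BMAC, against 3.0 (2.07 to 4.43) in PBMC. With that row summed, TEAD1 was 134.5-fold above PBMC in BM-MSC, against 56.2-fold for YAP1 and 26.1-fold for WWTR1. Whether TEAD1 or WWTR1 lay closer to YAP1 in that pair therefore depends on the overlapping row.

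Target genes relative to YAP1 differed between the marrow libraries. CTGF to YAP1 was 7.45 (7.14 to 7.77) in BM-MSC and 4.30 (4.14 to 4.47) in BMAC. AMOTL2 to YAP1 was 3.27 (3.12 to 3.42) in BM-MSC and 1.74 (1.66 to 1.82) in BMAC. CYR61 to YAP1, without the overlapping ZNHIT6 row, was 3.25 (3.10 to 3.40) in BM-MSC and 2.23 (2.13 to 2.32) in BMAC, against 0.385 (0.197 to 0.714) in PBMC. With both rows summed, CYR61 was 22.3-fold above PBMC in BM-MSC and 21.9-fold in BMAC. YAP1 differed more, by 56.2-fold and 81.1-fold. Whether the CYR61 to YAP1 ratio lay above or below that of PBMC therefore depends on the overlapping row. All of these target-to-YAP1 ratios were higher in BM-MSC than in BMAC, by 1.46 to 1.88 times. They share YAP1 as denominator, which in BM-MSC had 0.693 of its BMAC level, while CYR61 itself differed by 1.01-fold. Other targets went the other way relative to YAP1, such as THBS1 and RBMS3, at 0.499 and 0.517 of their BMAC level. The ratios therefore describe these genes and not YAP targets in general.

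**Figure D3:**
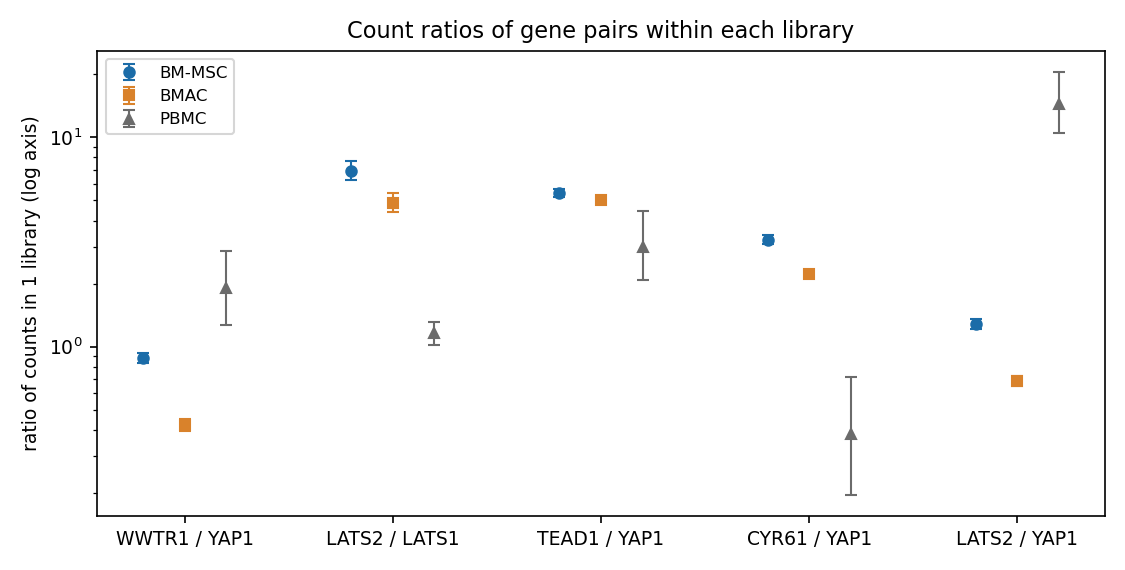
Ratio of the counts of one gene to those of another within each library, on a log axis, for BM-MSC (circles), BMAC (squares) and PBMC (triangles), with 95% exact conditional intervals. WWTR1 over YAP1 was lowest in BMAC at 0.423 and highest in PBMC at 1.90, and LATS2 over LATS1 was highest in BM-MSC at 6.93. CYR61 and TEAD1 were taken without their overlapping rows.

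The genes with the most similar pattern over the 3 libraries were found among 10446 named symbols that reached 10 CPM in a library, by the largest absolute difference in log2(CPM + 1) over the 3. Nearest to CTGF were BGN, the proteoglycan biglycan, at a difference of 0.21, C1QTNF1 at 0.54 and FSTL1 at 0.72. Nearest to CYR61 were UCHL1, a ubiquitin hydrolase of neurons, at 0.14, LDLRAD2 at 0.36 and MXRA8 at 0.44. Nearest to YAP1 were C1H14orf37 at 0.18, TBX15, a T-box factor of skeletal mesenchyme, at 0.26, and GLI3, a transcription factor of Hedgehog signalling, at 0.35. With 3 libraries, such likeness describes levels only.

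Other genes of the pathway were followed through 10 lists holding 109 genes outside the set described above. Of 97 measured in BM-MSC against PBMC, 29 were called higher and 10 lower, where 14.3% and 15.7% of all symbols were. Of 98 in BMAC against PBMC, 31 were higher and 11 lower, where 14% and 12.8% of all symbols were. Between BM-MSC and BMAC 4 of 91 were higher and 2 lower, where 2.9% and 3.21% of all symbols were. The lower counts against PBMC and both counts between the marrow populations lie near or below those shares and are no result about these lists. Of the genes measured against PBMC, 38 for BM-MSC and 42 for BMAC reached 10 CPM in a single library of the pair, which favours a call towards that library. The lists were also chosen with earlier results of these data known, so the higher counts describe the lists and do not test them. The median log2 ratios were 0.53, 0.61 and -0.14, against -0.16, -0.12 and -0.09 over all symbols. Counts of the single lists below are to be read beside the shares of all symbols given here.

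The kinase cassette upstream of LATS was present in all 3 libraries. Of its 6 genes, 0 were called higher and 1 lower in either marrow population against PBMC, with medians of 0.77 for BM-MSC and 0.74 for BMAC. In BM-MSC, 1 was called higher with TMM factors, with median-of-ratios factors and with totals without ribosomal RNA rows. The lower gene was STK4 (MST1), a kinase known for its role in lymphocytes, at 15.3 CPM for BM-MSC and 17.3 CPM for BMAC, against 233 CPM for PBMC. That is 15.2-fold (13.4 to 17.3) lower in BM-MSC and 13.5-fold (11.9 to 15.3) lower in BMAC. Its paralog STK3 (MST2) stood at 96.3 CPM for BM-MSC and 142 CPM for BMAC, against 59.0 CPM for PBMC, below the threshold. The scaffold gene SAV1, which overlaps ATL1, the kinase adaptors MOB1A and MOB1B, and NF2, the merlin tumour suppressor, had log2 ratios of 0.18 to 1.89 over PBMC. Between BM-MSC and BMAC 0 of the 6 were called.

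Regulators further upstream held calls in both directions. Of 28 measured in BM-MSC against PBMC 9 were called higher and 5 lower (median 0.61), and of 29 in BMAC against PBMC 11 were higher and 5 lower (median 1.05). Without rows that overlap another, 3 were lower in each comparison. The lower counts lie near the shares of all symbols given above. FAT1 and FAT4, giant protocadherins of the family whose Drosophila member Fat acts upstream of Hippo, were among the highest. FAT4 stood at 97.3 CPM for BM-MSC and 277 CPM for BMAC, against 1.55 CPM for PBMC, and FAT1 stood at 239.8 CPM for BM-MSC and 271 CPM for BMAC, against 2.46 CPM for PBMC. The 5 lower genes were the same in both comparisons, which share the PBMC library: the kinases MAP4K1 and MAP4K2, the RAS-association genes RASSF2 and RASSF5, and CRB3, which overlaps DENND1C. MAP4K1, a kinase of blood cells, had 0 counts in BM-MSC and stood at 0.727 CPM for BMAC, against 62.8 CPM for PBMC, at least 357-fold lower in BM-MSC. RASSF2 stood at 10.8 CPM for BM-MSC and 2.25 CPM for BMAC, against 111 CPM for PBMC. Some genes of the lower group were named after their values were seen, as was DCHS1, a protocadherin ligand of FAT4. DCHS1 was the 1 of 25 called between the marrow libraries, at 6.50 CPM for BM-MSC against 46.8 CPM for BMAC (0.139, 0.113 to 0.170).

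Genes of the STRIPAK phosphatase complex, which keeps STK3 and STK4 inactive, differed little. Of 11 measured against PBMC, 1 was called lower and 0 higher in each marrow population, with medians of -0.48 for BM-MSC (0.0017 with median-of-ratios factors) and -0.45 for BMAC. The lower gene was STRIP2, at 0.703 CPM for BM-MSC and 0.661 CPM for BMAC, against 11.8 CPM for PBMC, and with median-of-ratios factors or a pseudocount of 5 CPM 0 were called lower in either population. The YWHA adaptor genes, whose proteins hold phosphorylated YAP1 in the cytoplasm, and the genes for YAP1 turnover were not called in any pair with library totals (0 of 9, medians of 0.21, 0.14 and 0.05), while 1 was called higher in BM-MSC against PBMC under either TMM or median-of-ratios scaling. The widest ratio among them was that of BTRC, an F-box protein that marks YAP1 for degradation, at 46.9 CPM for BM-MSC and 63.0 CPM for BMAC, against 171 CPM for PBMC.

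**Figure D4:**
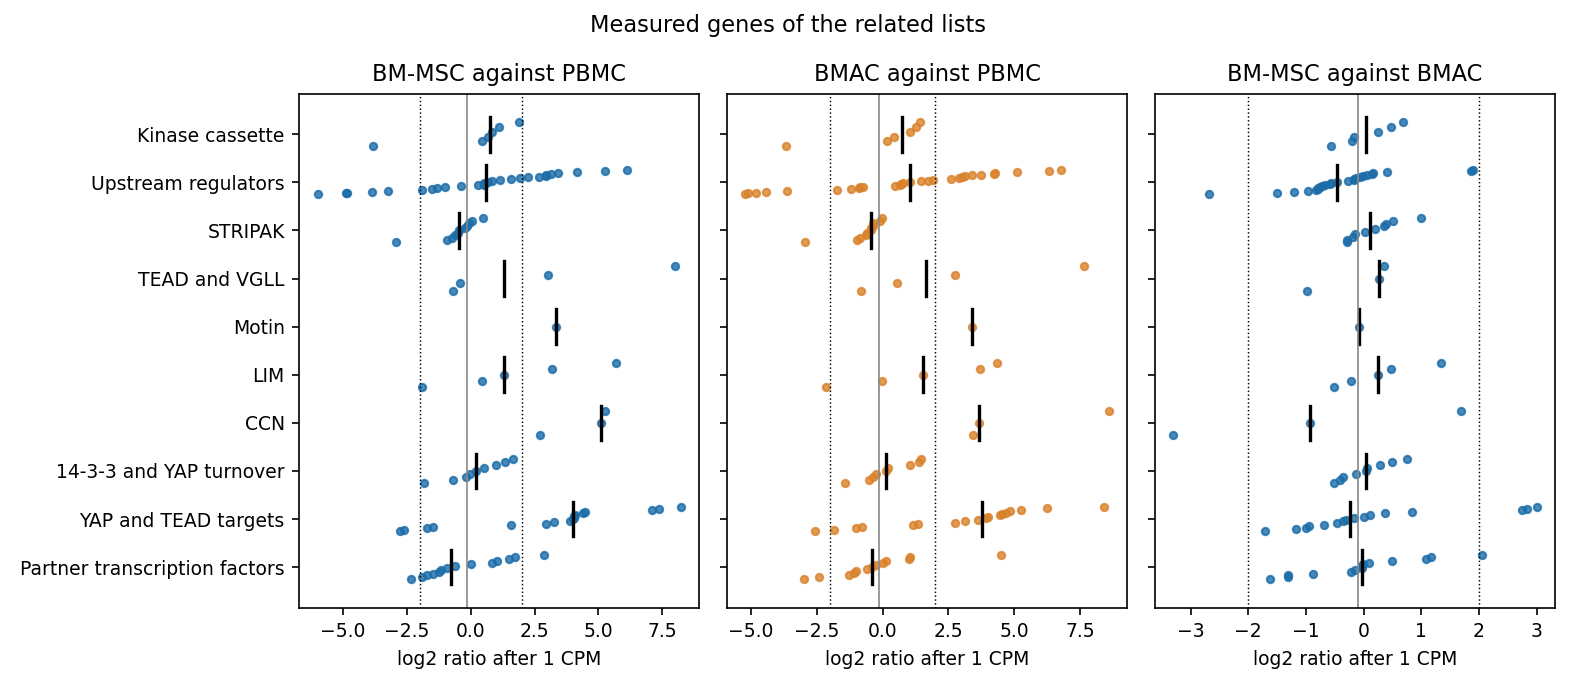
Log2 ratio after adding 1 CPM (x axis, scaled separately in each panel) of the measured genes in 10 related gene lists, 1 point per gene, for BM-MSC against PBMC, BMAC against PBMC and BM-MSC against BMAC. Black bars mark list medians, the grey line the median of all symbols and dotted lines the 4-fold threshold. Target genes of YAP and TEAD lie furthest to the right among the longer lists against PBMC, with medians of 4.0 and 3.76, and kinase cassette, STRIPAK and turnover genes mostly lie between the dotted lines.

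Of the other TEAD factors and the VGLL cofactors, which bind TEAD in competition with YAP1, 2 of 4 measured were called higher and 0 lower against PBMC in each marrow population, with medians of 1.30 for BM-MSC and 1.66 for BMAC. These medians depended on the processing: for BM-MSC the median was 3.23 with TMM factors, 3.24 with median-of-ratios factors, 2.84 with totals without ribosomal RNA rows and 0.65 with a pseudocount of 5 CPM, which left 1 gene called higher. For BMAC it was 2.91 with TMM factors, 2.90 with median-of-ratios factors and 1.02 with that pseudocount. VGLL3 stood at 369.8 CPM for BM-MSC and 289 CPM for BMAC, against 0.453 CPM for PBMC, 816-fold (396 to 2030.3) and 638-fold (309 to 1587) higher. TEAD4 stood at 13.9 CPM for BM-MSC and 11.4 CPM for BMAC, against 0.842 CPM for PBMC. TEAD2, which overlaps CD37, stood at 5.80, 5.36 and 10.1 CPM in the same order, and TEAD3 stayed under 10 CPM in every library. The ratios of TEAD3 over PBMC were 15.3 (7.84 to 34.1) for BM-MSC and 13.8 (7.06 to 31.0) for BMAC. VGLL4, which overlaps ATG7, stood at 78.2 CPM for BM-MSC and 155 CPM for BMAC, against 104 CPM for PBMC. Of the measured TEAD genes, TEAD1 and TEAD4 were called higher in marrow cells, while TEAD3 fell short of the floor.

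Paralogs of the adaptor and scaffold genes also differed among themselves. Of the LIM genes related to AJUBA, TRIP6 was called higher in both marrow populations, at 135 CPM for BM-MSC and 52.4 CPM for BMAC, against 1.62 CPM for PBMC. So was WTIP, at 19.0 CPM for BM-MSC and 27.6 CPM for BMAC, against 1.23 CPM for PBMC. LIMD1 was lower, at 37.7 CPM for BM-MSC and 31.5 CPM for BMAC, against 142 CPM for PBMC, with log2 ratios of -1.89 and -2.14 on either side of the threshold, and the BMAC call was lost with TMM and median-of-ratios factors. Medians of the 5 LIM genes were 1.31 for BM-MSC and 1.53 for BMAC. ZYX and LPP were not called. AMOTL1, the paralog of AMOTL2, stood at 36.3 CPM for BM-MSC and 38.4 CPM for BMAC, against 2.72 CPM for PBMC, and AMOT stayed under 10 CPM.

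The CCN family of CTGF and CYR61 held the widest ratio between the marrow populations among the measured genes of the lists. NOV (CCN3), a relative that is known to counteract CTGF in several settings, stood at 50.3 CPM for BM-MSC against 507 CPM for BMAC and 0.324 CPM for PBMC. BM-MSC had 0.0992 (0.0924 to 0.106) of the BMAC level, so NOV was 10.1-fold (9.39 to 10.8) lower in BM-MSC. WISP1 (CCN4) stood at 17.0 CPM for BM-MSC and 33.3 CPM for BMAC, against 1.75 CPM for PBMC, and WISP2 (CCN5) at 42.5, 12.5 and 0.259 CPM. All 3 were called higher than PBMC in both marrow populations (medians of 5.11 for BM-MSC and 3.64 for BMAC), WISP3 stayed under 10 CPM, and CTGF and CYR61 differed by 1.20-fold and 1.01-fold between the marrow populations.

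Further target genes of YAP and TEAD were mostly higher in marrow cells. Of 17 measured in BM-MSC against PBMC 12 were called higher and 2 lower (median 4.0), where 14.3% and 15.7% of all symbols were. Of 18 in BMAC against PBMC 12 were higher and 1 lower (median 3.76), where 14% and 12.8% of all symbols were. The lower counts lie near or below those shares and are no result about the list. Of the 17 and 18 measured, 11 and 12 reached 10 CPM in a single library of the pair, which favours a call towards that library. THBS1, the matricellular protein thrombospondin, stood at 2544 CPM for BM-MSC and 5103 CPM for BMAC, against 14.2 CPM for PBMC. CCDC80, a matrix protein gene, stood at 520.3 CPM for BM-MSC and 289 CPM for BMAC, against 2.85 CPM for PBMC, and RBMS3, an RNA-binding protein gene, at 385, 745 and 24.99 CPM. The lower genes were NUAK2, a stress kinase, at 4.28 CPM for BM-MSC and 5.22 CPM for BMAC, against 35.3 CPM for PBMC, and, in BM-MSC, the mitotic gene BIRC5, at 1.17 CPM against 12.1 CPM for PBMC. Both were named after their values were seen.

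Between the marrow populations 3 of 16 measured targets were called higher in BM-MSC than in BMAC, TGFB2 and GADD45A among them, and 0 were called lower, where 2.9% and 3.21% of all symbols were. The median log2 ratio of the 16 was -0.24, against -0.09 over all symbols, so the list as a whole did not lean to BM-MSC. TGFB2, a transforming growth factor ligand, stood at 127 CPM for BM-MSC against 16.9 CPM for BMAC (7.51-fold, 6.59 to 8.58), and GADD45A, a growth arrest gene, at 77.9 against 10.8 CPM (7.23-fold, 6.14 to 8.56), both named after their values were seen. These genes and ANKRD1 stood higher in BM-MSC, while THBS1 and RBMS3 had 0.499 (0.493 to 0.504) and 0.517 (0.502 to 0.534) of their BMAC level.

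Transcription factors that bind beside TEAD or read the same actin signals showed few calls. Of 14 measured in BM-MSC against PBMC 1 was higher and 1 lower (median -0.77, or 0.0019 without rows that overlap another), and of 13 in BMAC against PBMC 1 was higher and 2 lower (median -0.41). The higher gene was FOSL1, an AP-1 subunit, at 10.7 CPM for BM-MSC and 35.0 CPM for BMAC, against 0.583 CPM for PBMC. SMAD2, a transducer of transforming growth factor signals, stood at 80.8 CPM for BM-MSC and 75.6 CPM for BMAC, against 409 CPM for PBMC. The lower call in BM-MSC was lost with TMM and median-of-ratios factors (0 lower with each), 2 genes were higher with median-of-ratios factors, and 0 were higher with a pseudocount of 5 CPM. FOS stood at 11.1 CPM for BM-MSC and 1.92 CPM for BMAC, against 22.1 CPM for PBMC, and was called lower in BMAC and, as the 1 of 14 called between the marrow populations, 5.80-fold (3.91 to 8.90) higher in BM-MSC than in BMAC, a call lost with a pseudocount of 5 CPM.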

How the data were processed

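The authors deposited counts per gene row for each of 3 Lexogen QuantSeq libraries, made from 500 ng of total RNA per the labels' protocols. Bowtie2 and bedtools are named per the submitters' processing notes, while the genome build, gene annotation, strand use and treatment of multi-mapped reads were not given in the sources used here. QuantSeq reads come from the 3' end, so counts were not divided by length. The 26965 rows were summed to 26466 symbols (81 had several rows, none of them among the 10 genes) and divided by library totals of 17069344 (BM-MSC), 15122997 (BMAC) and 15445903 (PBMC). Ribosomal RNA rows held 15.5% of the total for BM-MSC, 11.4% for BMAC and 5.29% for PBMC. Fold intervals are 95% exact conditional intervals, computed with scipy 1.17.1 and pandas 2.3.3. PCR reads without molecular identifiers are not independent molecules. The RefSeq table of Sscrofa11.1 matched all 26466 symbols and served for overlapping and neighbouring genes only. A listed gene was taken as overlapped where another row held at least 25% of its count over the 3 libraries. Besides the overlaps named above, this applied to NT5E (LOC102157437), TEK (LOC102166359), RASSF5 (LOC106508612) and WISP3 (TUBE1). Alternatives used edgeR 4.0.16 (TMM) and DESeq2 1.42.0 (median of ratios) factors, other pseudocounts, floors and thresholds. The rule and intervals were run on simulated Poisson counts with known folds. Those counts held counting error only, as the intervals assume, so they cannot show how calls would repeat between libraries. The 10 genes, 10 lists and rules were chosen with earlier results of these data known. Beyond the 10 genes, names came from the short lists in full, from up to 4 genes with the widest ratio of each longer list, from the markers and from the 3 nearest patterns. Of the listed genes, 2 had no row under their symbol and were not analysed here. A marker gene and a target gene of the lists are not reported here, although list counts and medians include the target.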

Additional observations from a re-analysis of the deposited data

How the results depend on the processing

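No paired analysis was possible because each population has 1 library. For the same reason no library could be left out. The log2 ratios that were measured with the main settings gave 304 values under 12 alternative settings. Of these, 293 kept their direction and their side of the threshold. AJUBA, measured in no pair, is not among them. Its log2 ratios over PBMC were 2.60 for BM-MSC and 2.46 for BMAC, so its lack of a call rests on the floor of 10 CPM. LATS1 reversed to 0.067 (BM-MSC against PBMC) and 0.15 (BMAC against PBMC) with TMM factors, and to 0.091 and 0.16 with median-of-ratios factors. Dropping rows overlapped by another row removed CYR61, ANKRD1 and TEAD1, which left 5 of the genes called higher in BM-MSC against PBMC and 0 in BM-MSC against BMAC. Summing each of these genes with its overlapping row, a setting chosen after seeing the data, also left 0 called between BM-MSC and BMAC, with ANKRD1 at 1.06 against PBMC and 1.24 against BMAC. For all listed genes together, the number called lower in BM-MSC against PBMC was 23 at 2-fold and 6 at 8-fold, and in BMAC against PBMC 19 at 2-fold, 6 at 8-fold and 7 with a pseudocount of 5 CPM. Between BM-MSC and BMAC it was 10 higher and 10 lower at 2-fold, and 0 higher and 1 lower at 8-fold. List medians near 0 reversed for STRIPAK in BM-MSC against PBMC with median-of-ratios factors (0.0017), for the partner transcription factors in BM-MSC against PBMC without overlapped rows (0.0019), and for those factors in BM-MSC against BMAC with TMM (0.023), median-of-ratios factors (0.038) and totals without ribosomal RNA rows (0.038). Without overlapped rows the kinase cassette (-0.16) and STRIPAK (-0.15) medians reversed in BM-MSC against BMAC. Where no cause is given by the construction of a setting, the cause was not tested. Depth limits AJUBA in all libraries and YAP1, WWTR1, TEAD1 and CYR61 in PBMC, which rest on 8 to 140 counts.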

Other observations

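The rows on either side of the 10 genes in the RefSeq annotation were followed as well, 20 rows in all. In BM-MSC against PBMC 6 of 13 measured neighbours were called higher and 0 lower, in BMAC against PBMC 3 of 13 were higher and 1 lower, and in BM-MSC against BMAC 1 of 12 was higher. The shares of all symbols called higher and lower were 14.3% and 15.7%, 14% and 12.8%, and 2.9% and 3.21% in the same pairs, and the counts for BMAC against PBMC and between the marrow populations are too few to set apart from them. Of the 6 higher in BM-MSC against PBMC, all but COL24A1 (11.7 CPM for PBMC) reached 10 CPM only through BM-MSC, which favours a call in that direction. That count therefore describes the neighbours and does not test them. PARVA, a focal adhesion adaptor gene that follows TEAD1, stood at 221 CPM for BM-MSC and 376 CPM for BMAC, against 3.37 CPM for PBMC. C9H11orf70, next to YAP1, stood at 33.4 CPM for BM-MSC and 31.9 CPM for BMAC, against 1.75 CPM for PBMC, while BIRC3, an inhibitor of apoptosis gene on the other side of YAP1, stood at 42.8, 147 and 164 CPM. ENPP1, an ectoenzyme gene next to CTGF, stood at 85.6 CPM for BM-MSC and 23.4 CPM for BMAC, against 5.63 CPM for PBMC. Neighbours of LATS1, LATS2 and AJUBA were not called in any pair. All of these neighbours were chosen after their values were seen.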
